A study of Saccharomyces cerevisiae with 6 samples.

Results

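The 38 genes described here encode the main antioxidant and redox proteins of Saccharomyces cerevisiae and 2 of their transcriptional regulators. They were listed by name, from catalases and superoxide dismutases through peroxiredoxins, thioredoxins, glutaredoxins and glutathione enzymes to the regulators YAP1 and SKN7. All 38 of 38 were found on the array, among 5449 genes tested. Each was measured by a single probe set whose suffix marks no second target, and each had a mean above the background defined below. Cells labelled BY4741, a laboratory yeast strain, were grown in rich medium (YPD) and exposed for 3 hours to rapamycin (200 nM), to the coded compound CID 3528206 (20 µM) or to 1% DMSO. Each of the 3 groups had 2 arrays, 6 in all. Rapamycin blocks TOR complex 1, the kinase that ties growth to nutrient supply, and the study placed the compound beside it. The labels do not state whether the rapamycin and compound cultures also contained DMSO. They do not state either whether the duplicates were separate cultures, so the p-values cover only the spread among these 6 arrays, which may be technical.

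Yeast cells remove hydrogen peroxide with catalases and with peroxidases that take electrons from thioredoxin or glutathione. Thioredoxin reductase and glutathione reductase return those electrons from NADPH, which is largely supplied by the pentose phosphate pathway. Yap1 is the transcription factor that senses peroxide and activates many of these genes, often together with Skn7, and Msn2 and Msn4 activate others, such as CTT1, in the general stress response.

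Values are log2 RMA values, in which 1 unit is a doubling, and levels of different probe sets cannot be set against each other. A call means an adjusted p under 0.05 from limma with Benjamini-Hochberg adjustment over all 5449 genes, and the error after ± is the standard error of a log2 difference with n = 2 arrays per group. The background, the 95th percentile of 1746 probe sets for the yeast Schizosaccharomyces pombe, lay between 4.27 and 4.38, and the lowest value of any member on any array was 5.93. The compound's arrays were less alike than the others: over all genes, replicates differed with a standard deviation of 0.267 log2 units after CID 3528206, 0.123 after DMSO and 0.122 after rapamycin. CID 3528206 replicate 1 also stood apart in its 3' minus 5' control signal, averaged over 7 yeast genes, at 1.69 log2 units against 0.91 to 1.14 on the other arrays. Member counts without that array stand beside the first counts, and differences without a compound array are given where its loss changes a call against DMSO. Leaving out 1 array of a group leaves that group no spread of its own. An adjusted p or count from such a fit rests on the spread of the other groups. Without a compound array, it leaves out the wider spread of the compound arrays. The 4 genes that BY4741 lacks gave values of at least 10.39, and the 5 alpha cell genes measured lay at 8.59 or above while the 7 genes of a cells, its own mating type, reached at most 8.24, so the strain is named only as labelled. The arrays read RNA from whole cultures, in which fewer cells carrying a transcript and less transcript per cell cannot be told apart.

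**Figure D1:**
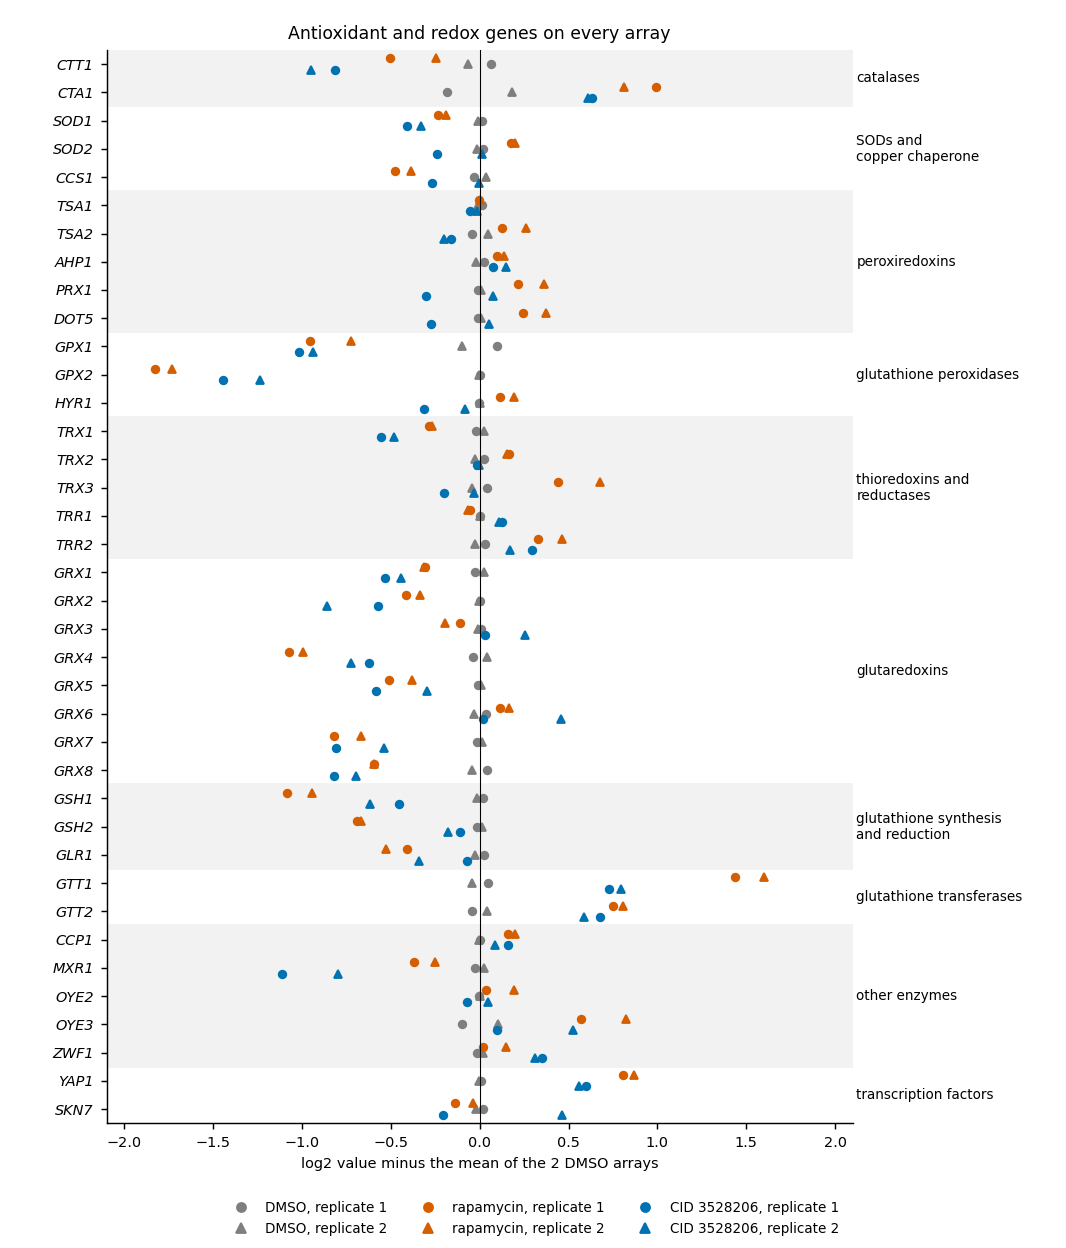
Log2 value of each of the 38 members on each of the 6 arrays, minus the mean of the 2 DMSO arrays (x axis), with genes grouped by role (y axis); circles are replicate 1 and triangles replicate 2. GPX2 lies farthest to the left and GTT1 farthest to the right, both after rapamycin. Mean differences of the peroxiredoxins ran from 0.00 to 0.31 after rapamycin and from -0.18 to 0.11 after the compound.

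After rapamycin, 7 of the 38 members rose, 15 fell and 16 did not pass the test. Of all genes tested, 52.7% were called in this comparison, 26.5% higher and 26.2% lower, so 22 called members, 57.9% of 38, are near the background as a total. After CID 3528206, 5 members rose, 13 fell and 20 did not pass, where 50.5% of all genes were called, 26.1% higher and 24.4% lower. A call with at least 0.58 log2 units (1.5-fold) was made for 12 members after rapamycin and 11 after the compound, beside 22.2% and 20.8% of all genes. Arrays did not overlap with DMSO for 37 members after rapamycin and 28 after the compound, beside 84.9% and 75.8% of all genes. The median member difference was -0.03 after rapamycin and -0.12 after the compound, beside -0.02 and -0.01 for all genes tested. Both treatments share the DMSO arrays. The call was lower after both for 12 members (CTT1, SOD1, GPX1, GPX2, TRX1, GRX1, GRX2, GRX4, GRX5, GRX7, GRX8 and GSH1) and higher after both for 4 (CTA1, GTT1, GTT2 and YAP1). Of all genes, 17.4% were called lower after both and 19.9% higher after both. In opposite directions 0 members and 0.606% of all genes were called. The counts depended on single arrays. After rapamycin 6 members rose and 7 fell without DMSO replicate 1, 6 and 7 without DMSO replicate 2, 7 and 8 without rapamycin replicate 1, and 5 and 9 without rapamycin replicate 2. With the 4 DMSO and rapamycin arrays fitted alone, or without either compound array, 14 rose and 17 fell. After the compound 9 rose and 14 fell without CID 3528206 replicate 1, and 6 and 19 without CID 3528206 replicate 2.

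The 2 catalases moved in opposite directions. CTA1 encodes the catalase of peroxisomes, where fatty acid oxidation makes hydrogen peroxide. Its level was 5.93 and 6.29 after DMSO, 7.10 and 6.92 after rapamycin and 6.75 and 6.72 after CID 3528206. All 4 treated arrays lay above both DMSO arrays, with a rise of 1.87-fold after rapamycin (0.90 ± 0.13, adjusted p = 0.00231) and 1.54-fold after the compound (0.62 ± 0.13, adjusted p = 0.0101). CTT1, the cytosolic catalase of the stress response, stood at 9.27 and 9.14 after DMSO, 8.69 and 8.96 after rapamycin and 8.39 and 8.25 after the compound. The groups did not overlap and were ordered DMSO, rapamycin, compound. CTT1 fell 1.85-fold after the compound (-0.88 ± 0.11, adjusted p = 0.00149) and less after rapamycin (-0.38 ± 0.11, adjusted p = 0.031). The rapamycin call for CTT1 ended without either DMSO array or without rapamycin replicate 1 (adjusted p 0.16, 0.075 and 0.176, with 0.176 the highest over the alternatives). The compound call for CTA1 ended after quantile normalization of the genes tested (adjusted p = 0.217) and with array weights per group (0.0531).

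Of the superoxide dismutases, which turn superoxide into hydrogen peroxide, the copper-zinc enzyme gene SOD1 fell after both treatments. It read 14.06 and 14.04 after DMSO, 13.82 and 13.86 after rapamycin and 13.65 and 13.72 after the compound. Every treated array lay below both DMSO arrays, by -0.21 ± 0.07 after rapamycin (adjusted p = 0.0375) and -0.37 ± 0.07 after the compound (adjusted p = 0.00561). The gene of the copper chaperone of Sod1, CCS1, fell after rapamycin (-0.43 ± 0.10, adjusted p = 0.0151) and differed by -0.14 ± 0.10 after the compound without passing. SOD2, the manganese enzyme of mitochondria, did not pass in either comparison, at 0.19 ± 0.10 and -0.11 ± 0.10, but passed after rapamycin with the 4 DMSO and rapamycin arrays alone (adjusted p = 0.0202). Without CID 3528206 replicate 2, the compound differences of SOD2 and CCS1 were -0.24 and -0.27. The rapamycin calls for SOD1 and CCS1 ended without any 1 of the 4 DMSO and rapamycin arrays, with adjusted p of 0.131 to 0.205 for SOD1 and 0.0558 to 0.0956 for CCS1. The compound call for SOD1 ended without DMSO replicate 1 (0.0508), and its rapamycin call also ended after quantile normalization of the genes tested (0.0883).

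None of the 5 peroxiredoxin genes passed the test after either treatment. These enzymes reduce peroxides with a reactive cysteine and are re-reduced mainly by thioredoxin. TSA1, the abundant cytosolic peroxiredoxin, lay between 14.21 and 14.27 on all 6 arrays, and AHP1, which prefers organic peroxides, between 14.15 and 14.32. Both are near the highest value of any probe set on these arrays, 14.87, and whether their probes were close to saturation was not tested. TSA2, the stress-inducible relative of TSA1, read 9.37 and 9.46 after DMSO, 9.54 and 9.67 after rapamycin and 9.25 and 9.21 after CID 3528206. The rapamycin arrays lay above and the compound arrays below DMSO, by 0.19 ± 0.08 (adjusted p = 0.0817) and -0.18 ± 0.08 (adjusted p = 0.0992), neither past the threshold. The mitochondrial peroxiredoxin gene PRX1 and the nuclear one, DOT5, showed a similar layout for rapamycin, with differences of 0.29 ± 0.13 and 0.31 ± 0.12. When the 4 DMSO and rapamycin arrays were fitted alone, TSA2, PRX1 and DOT5 passed after rapamycin (adjusted p 0.0463, 0.00866 and 0.00566). After the compound, PRX1 read 10.85 on replicate 1 and 11.23 on replicate 2, either side of the DMSO values of 11.14 and 11.16. Without CID 3528206 replicate 2, the compound differences of PRX1 and DOT5 were -0.30 and -0.27.

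The glutathione peroxidase genes held the largest fall among the members. GPX2, whose product reduces peroxides in several compartments, read 11.93 and 11.92 after DMSO, 10.10 and 10.20 after rapamycin and 10.48 and 10.69 after the compound. No treated array came near the DMSO arrays, and GPX2 fell 3.44-fold after rapamycin (-1.78 ± 0.09, adjusted p = 4.8e-05) and 2.53-fold after the compound (-1.34 ± 0.09, adjusted p = 0.00016). GPX1, a membrane-associated member of the same family, was at 9.79 and 9.59 after DMSO, 8.74 and 8.97 after rapamycin and 8.68 and 8.75 after the compound. It fell by 0.84 ± 0.11 and 0.98 ± 0.11 log2 units (adjusted p = 0.00146 and 0.001), and the values after rapamycin and after the compound overlapped. HYR1, also called GPX3, encodes the peroxidase that passes the peroxide signal to Yap1. Its level changed little, from 12.06 and 12.07 after DMSO to 12.18 and 12.25 after rapamycin and 11.75 and 11.98 after the compound, and neither difference from DMSO passed (0.15 ± 0.09 and -0.20 ± 0.09). HYR1 did pass after rapamycin with the 4 DMSO and rapamycin arrays alone (adjusted p = 0.0479). Its compound difference was -0.31 without CID 3528206 replicate 2.

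Of the 5 thioredoxin system genes, 2 rose and 1 fell after rapamycin, and 1 fell after the compound. Over all genes tested, 26.5% rose and 26.2% fell after rapamycin, and 24.4% fell after the compound. TRX1 and TRX2 encode the cytosolic thioredoxins and TRR1 their reductase, while TRX3 and TRR2 encode the mitochondrial pair. TRX3 read 10.65 and 10.56 after DMSO, 11.05 and 11.28 after rapamycin and 10.40 and 10.57 after the compound. Both rapamycin arrays were above all others, a rise of 1.47-fold (0.56 ± 0.11, adjusted p = 0.00627), and the compound arrays overlapped the DMSO arrays (-0.12 ± 0.11). TRR2 rose with it after rapamycin (0.40 ± 0.08, adjusted p = 0.00873) and differed by 0.23 ± 0.08 after the compound (adjusted p = 0.0572). TRX1 fell after both treatments, from 13.12 and 13.16 after DMSO to 12.86 and 12.88 after rapamycin and 12.59 and 12.66 after the compound (-0.28 ± 0.07 and -0.52 ± 0.07, adjusted p = 0.0157 and 0.00164). TRX2, which like TRR1 is a classical Yap1 target, differed by 0.16 ± 0.06 after rapamycin and -0.01 ± 0.06 after the compound, and TRR1 by -0.06 ± 0.06 and 0.12 ± 0.06, none past the threshold. TRX2 passed after rapamycin with the 4 DMSO and rapamycin arrays alone (adjusted p = 0.0385). The compound difference of TRR2 was 0.29 without CID 3528206 replicate 2. The rapamycin call for TRX1 ended without any 1 of the 4 arrays compared (adjusted p 0.0768 to 0.116), and that for TRR2 without DMSO replicate 2 or rapamycin replicate 2 (0.0679 and 0.0733).

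Most glutaredoxin genes were called lower with all 6 arrays. Glutaredoxins use glutathione to reduce disulfides or, in the monothiol class, to handle iron-sulfur clusters. Of the 8 genes, 6 fell after rapamycin and the same 6 after the compound, and 0 rose. Over all genes tested, 26.2% and 24.4% were called lower, and 17.4% were called lower after both. Without CID 3528206 replicate 1, the compound differences of GRX3 and GRX6 were 0.25 and 0.46. The count lower after rapamycin was 3 without DMSO replicate 1, DMSO replicate 2 or rapamycin replicate 1, and 4 without rapamycin replicate 2. GRX4, a nuclear and cytosolic monothiol glutaredoxin that takes part in iron sensing with Grx3, read 11.28 and 11.36 after DMSO, 10.25 and 10.32 after rapamycin and 10.70 and 10.60 after the compound. It fell after rapamycin (-1.03 ± 0.08, adjusted p = 0.00016) and less after the compound (-0.67 ± 0.08, adjusted p = 0.000998). GRX3, its close relative, did not pass in either comparison with all 6 arrays, at -0.16 ± 0.09 and 0.14 ± 0.09. Its rapamycin arrays lay below and its compound arrays above DMSO. GRX3 passed narrowly after rapamycin with the 4 DMSO and rapamycin arrays alone (adjusted p 0.05 when rounded).

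GRX7, a glutaredoxin of the early secretory pathway, read 10.92 and 10.95 after DMSO, 10.12 and 10.27 after rapamycin and 10.13 and 10.40 after the compound. It fell by 0.74 ± 0.11 and 0.67 ± 0.11 (adjusted p = 0.00235 and 0.00386), while GRX6, the other glutaredoxin of that pathway, differed by 0.14 ± 0.14 and 0.24 ± 0.14 without passing. GRX6 read 10.16 on compound replicate 1 and 10.59 on replicate 2, and its compound difference was 0.46 without CID 3528206 replicate 1. GRX8, a cytosolic dithiol protein, was at 8.82 and 8.74 after DMSO, 8.18 and 8.18 after rapamycin and 7.96 and 8.08 after the compound. The fall was 0.59 ± 0.08 log2 units after rapamycin and 0.76 ± 0.08 after the compound (adjusted p = 0.00132 and 0.000637).

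GRX2, which has cytosolic and mitochondrial forms, read 12.73 and 12.72 after DMSO, 12.31 and 12.39 after rapamycin and 12.16 and 11.87 after the compound. It fell 1.64-fold after the compound (-0.71 ± 0.11, adjusted p = 0.00271) and 1.3-fold after rapamycin (-0.38 ± 0.11, adjusted p = 0.026). Its cytosolic relative GRX1 fell by 0.31 ± 0.07 and 0.49 ± 0.07 after rapamycin and the compound, and the mitochondrial GRX5, which acts in iron-sulfur cluster assembly, fell by 0.44 ± 0.11 after each. The rapamycin calls for GRX1, GRX2 and GRX5 and the compound call for GRX5 were the less secure ones. After rapamycin the calls for GRX1 and GRX2 ended without any 1 of the 4 arrays compared (adjusted p 0.0615 to 0.0914 and 0.083 to 0.136), and that for GRX5 when DMSO replicate 1, DMSO replicate 2 or rapamycin replicate 1 was left out (0.0732, 0.0819 and 0.103). The compound call for GRX5 ended without DMSO replicate 1 or 2 (0.0771 and 0.0892).

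**Figure D2:**
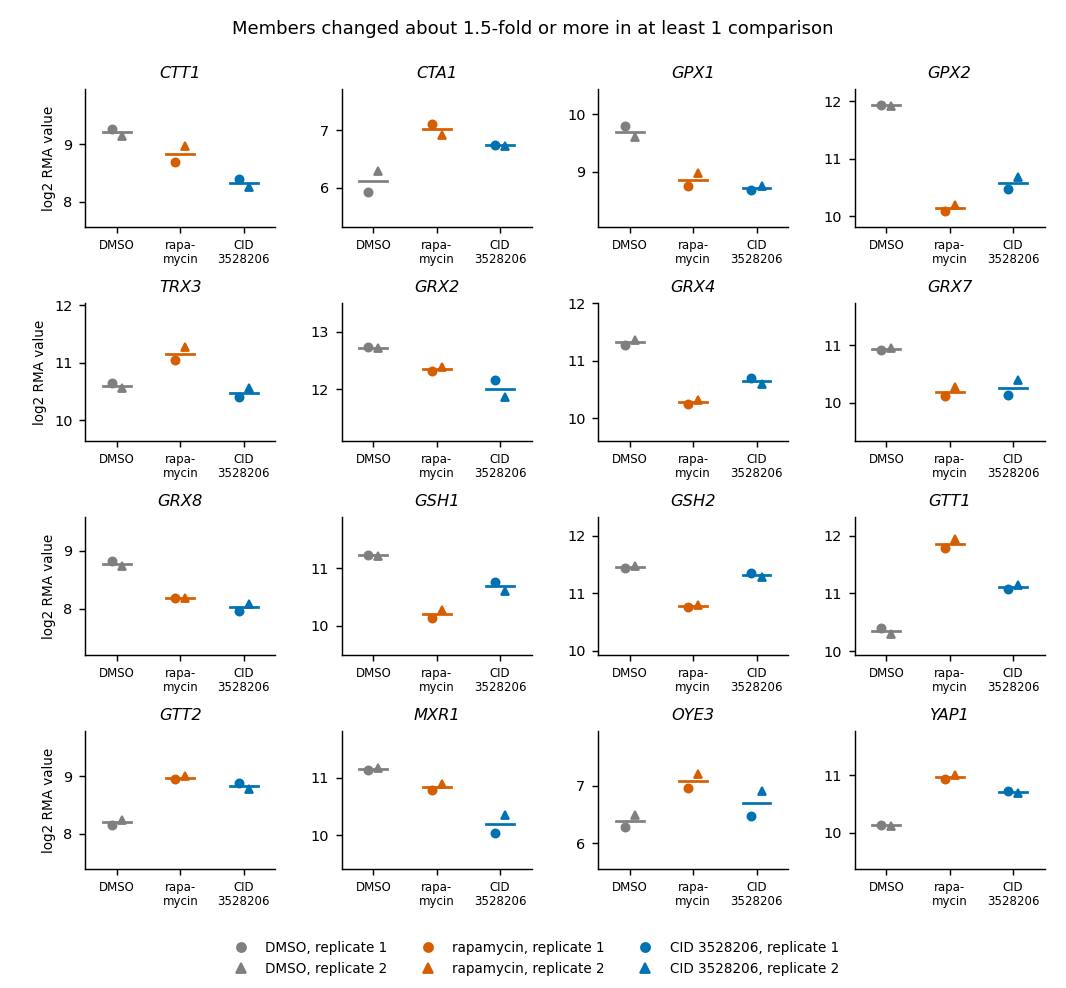
Log2 RMA value (y axis, spanning 2.4 units in every panel) of the 16 members called with a log2 difference of at least 0.58 in at least 1 comparison, by group (x axis); points are single arrays and bars the group means. For GPX2, GRX4, GSH1 and GSH2 the rapamycin arrays are the lowest, and for CTT1, MXR1, GRX2 and GRX8 the compound arrays are.

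All 3 genes that make or reduce glutathione fell after rapamycin, and 1 of them after the compound. Over all genes tested, 26.2% were called lower after rapamycin and 24.4% after the compound. GSH1 encodes gamma-glutamylcysteine synthetase, the rate-limiting enzyme of glutathione synthesis, and is a Yap1 target. It read 11.24 and 11.21 after DMSO, 10.14 and 10.28 after rapamycin and 10.76 and 10.60 after CID 3528206. The 3 groups did not overlap, and GSH1 fell 2.02-fold after rapamycin (-1.01 ± 0.09, adjusted p = 0.0003) and 1.45-fold after the compound (-0.54 ± 0.09, adjusted p = 0.00386). GSH2, glutathione synthetase, carries out the next step. Its level was 11.44 and 11.47 after DMSO, 10.77 and 10.79 after rapamycin and 11.35 and 11.28 after the compound, a fall of 1.6-fold after rapamycin (-0.68 ± 0.07, adjusted p = 0.00047) and a difference of -0.14 ± 0.07 after the compound that did not pass (adjusted p = 0.115). GLR1, glutathione reductase, fell by 0.47 ± 0.11 after rapamycin (adjusted p = 0.012) and differed by -0.21 ± 0.11 after the compound. Without CID 3528206 replicate 1 the compound difference of GLR1 was -0.34. The rapamycin call for GLR1 ended when DMSO replicate 1, DMSO replicate 2 or rapamycin replicate 2 was left out (adjusted p 0.0722, 0.0543 and 0.0816).

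The 2 glutathione transferases, which attach glutathione to foreign or damaged molecules, rose after both treatments. Over all genes tested, 19.9% were called higher after both. GTT1, located at the endoplasmic reticulum, read 10.39 and 10.30 after DMSO, 11.78 and 11.95 after rapamycin and 11.08 and 11.14 after the compound. The groups were well apart, with a rise of 2.87-fold after rapamycin (1.52 ± 0.08, adjusted p = 6.42e-05) and 1.7-fold after the compound (0.76 ± 0.08, adjusted p = 0.000957). GTT2 was at 8.16 and 8.24 after DMSO, 8.95 and 9.01 after rapamycin and 8.88 and 8.79 after the compound. It rose 1.72-fold (0.78 ± 0.07, adjusted p = 0.000416) and 1.55-fold (0.63 ± 0.07, adjusted p = 0.00112).

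Among the remaining enzymes, MXR1 showed the largest fall, and that after the compound. MXR1 is a methionine sulfoxide reductase, which repairs oxidised methionine. Its values were 11.12 and 11.17 after DMSO, 10.78 and 10.90 after rapamycin and 10.03 and 10.35 after the compound. It fell 1.94-fold after the compound (-0.96 ± 0.11, adjusted p = 0.0013), and the rapamycin difference of -0.31 ± 0.11 did not pass (adjusted p = 0.0641), although it did with the 4 DMSO and rapamycin arrays alone (adjusted p = 0.00552). OYE3, an NADPH oxidoreductase of the old yellow enzyme family, read 6.28 and 6.48 after DMSO, 6.96 and 7.21 after rapamycin and 6.48 and 6.91 after the compound. Only the rapamycin arrays stood clear of DMSO, and OYE3 rose after rapamycin (0.70 ± 0.17, adjusted p = 0.0143), a call that ended without DMSO replicate 1 (0.0815), without rapamycin replicate 2 (0.0851) and after quantile normalization of the genes tested (0.0865). Without CID 3528206 replicate 1, the compound difference of OYE3 was 0.52, against 0.31 ± 0.17 with all arrays.

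ZWF1 encodes glucose-6-phosphate dehydrogenase, the entry of the pentose phosphate pathway and a source of NADPH. It read 11.50 and 11.54 after DMSO, 11.54 and 11.67 after rapamycin and 11.87 and 11.83 after the compound, and rose after the compound (0.33 ± 0.07, adjusted p = 0.0119). That call ended without DMSO replicate 1 or 2 (0.0833 and 0.0693), and the rapamycin difference was 0.08 ± 0.07. The mitochondrial cytochrome c peroxidase gene CCP1 and the second old yellow enzyme gene OYE2 did not pass, with differences from -0.01 to 0.18, although CCP1 passed after rapamycin with the 4 DMSO and rapamycin arrays alone (adjusted p = 0.0242).

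Of the 2 regulators, YAP1 rose after both treatments. It read 10.14 and 10.12 after DMSO, 10.94 and 11.00 after rapamycin and 10.73 and 10.69 after the compound. The 3 groups did not overlap, and YAP1 rose 1.79-fold after rapamycin (0.84 ± 0.07, adjusted p = 0.00021) and 1.49-fold after the compound (0.58 ± 0.07, adjusted p = 0.00106). SKN7 did not pass in either comparison, and its compound arrays lay far apart, at 10.18 on replicate 1 and 10.85 on replicate 2 around DMSO values of 10.40 and 10.37. The 2 compound arrays gave differences of opposite sign when used singly. For SKN7 these were 0.46 without CID 3528206 replicate 1 and -0.21 without CID 3528206 replicate 2. Its replicate difference of 0.67 log2 units after the compound compares with a median of 0.12 over the members.

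CID 3528206 and rapamycin were then compared directly, at doses that differ. Between them 11 of the 38 members were called, 4 higher and 7 lower after the compound, where 18.8% of all genes were called, 9.32% higher and 9.43% lower. Of the members, 3 were called with at least 0.58 log2 units, beside 5.58% of all genes, and arrays did not overlap for 30, beside 63.5%. The median member difference was -0.15, and that over all genes was 0.00. The 4 members higher after the compound were GSH2 (0.54 ± 0.07, adjusted p = 0.00688), GSH1 (0.48 ± 0.09, adjusted p = 0.0186), GPX2 (0.44 ± 0.09, adjusted p = 0.0249) and GRX4 (0.36 ± 0.08, adjusted p = 0.026). For these 4 genes the rapamycin arrays were the lowest of all 6. The 7 lower after the compound included GTT1 (-0.76 ± 0.08, adjusted p = 0.00496), TRX3 (-0.68 ± 0.11, adjusted p = 0.013), MXR1 (-0.65 ± 0.11, adjusted p = 0.0172) and CTT1 (-0.51 ± 0.11, adjusted p = 0.0298). The other 3 were TSA2 (-0.37 ± 0.08, adjusted p = 0.0264), HYR1 (-0.35 ± 0.09, adjusted p = 0.0495) and YAP1 (-0.26 ± 0.07, adjusted p = 0.0423). GTT1 and YAP1 were thus above DMSO after both treatments and highest after rapamycin, while CTT1 was below DMSO after both and lowest after the compound.

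These direct differences rested on few arrays. Without rapamycin replicate 2 none of the 11 calls was kept, and limma then called 53 genes lower and 43 higher in the whole table. Without rapamycin replicate 1 the counts of members were 0 higher and 1 lower, and without DMSO replicate 1 or 2, whose only part is in the shared spread, they were 1 and 3. GTT1 had an adjusted p of 0.058 without rapamycin replicate 2, the only array whose loss ended its call, and GSH2 0.077 and 0.0794 without rapamycin replicate 1 and 2. Leaving out CID 3528206 replicate 1 gave 8 higher and 7 lower, and leaving out CID 3528206 replicate 2 gave 6 and 14.

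**Figure D3:**
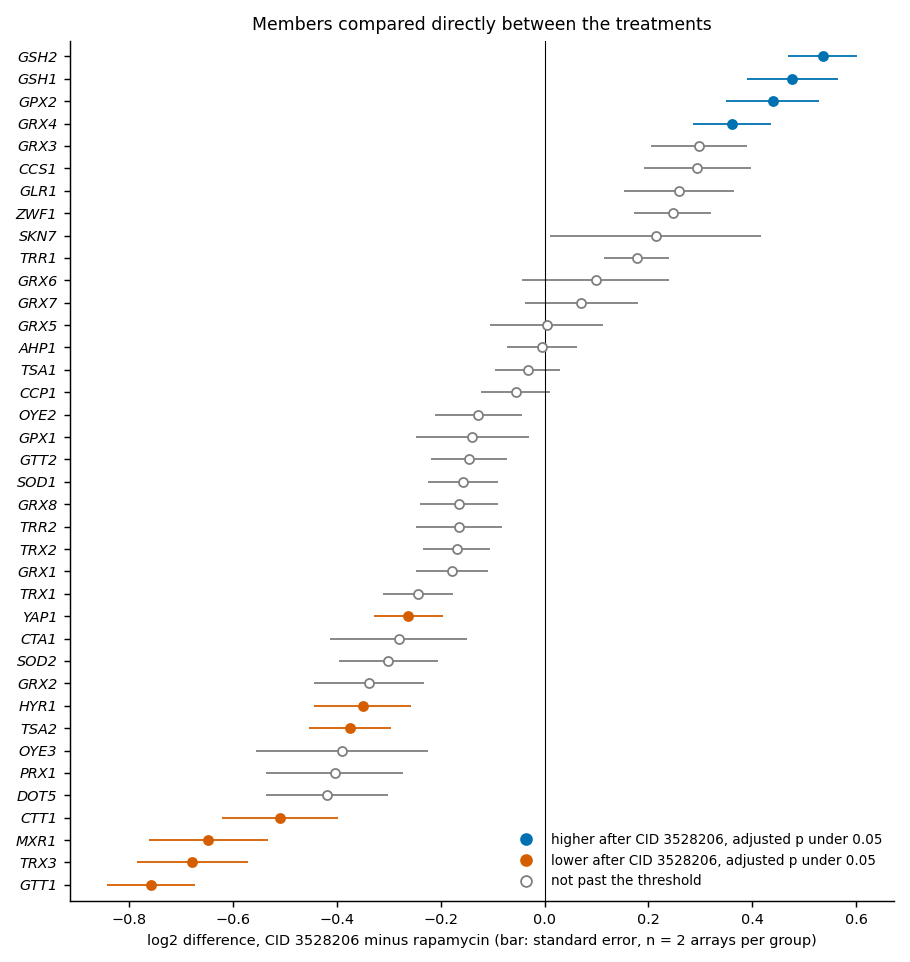
Log2 difference between CID 3528206 and rapamycin for each of the 38 members (x axis, with standard error bars), ordered by size (y axis); filled points passed an adjusted p of 0.05 with all 6 arrays. The glutathione synthesis genes GSH1 and GSH2 are at the top and GTT1, TRX3, MXR1 and CTT1 at the bottom.

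Related genes outside the 38 members were read from 5 lists with 70 measured genes, whose counts stand against the 52.7% and 50.5% of all genes called after rapamycin and after the compound. In the list of 17 NADPH supply genes, 7 rose, 4 fell and 6 did not pass after rapamycin, and 5 rose, 3 fell and 9 did not pass after the compound, or 64.7% and 47.1% called. Without DMSO replicate 1 or 2, 3 rose after the compound, and without DMSO replicate 2, 2 fell after rapamycin. The NADP-dependent isocitrate dehydrogenase genes rose after both. IDP2, the cytosolic enzyme, rose 4.17-fold after rapamycin (2.06 ± 0.08) and 2.26-fold after the compound (1.17 ± 0.08). IDP1 of mitochondria rose 2.22-fold and 2.3-fold, and IDP3 of peroxisomes 2.26-fold and 2.72-fold. Pentose phosphate genes showed both directions: the phosphogluconolactonase gene SOL4 fell by 0.87 ± 0.10 and 1.46 ± 0.10, and the ribose-5-phosphate isomerase gene RKI1 by 0.97 ± 0.14 and 0.75 ± 0.14. GND2, a phosphogluconate dehydrogenase, rose by 0.88 ± 0.13 and 0.54 ± 0.13, and the transaldolase gene NQM1 by 0.90 ± 0.13 and 0.45 ± 0.13. The compound calls of both ended without DMSO replicate 1 or 2 (adjusted p 0.0694 and 0.0648 for GND2, 0.0636 and 0.146 for NQM1). Of their relatives, GND1 was called lower after rapamycin, a call that ended without any 1 of the 4 DMSO and rapamycin arrays. TAL1 was not called after either treatment. SOL3 was called lower after rapamycin, a call that ended without DMSO replicate 2. ALD6, the cytosolic acetaldehyde dehydrogenase that makes NADPH, read 12.79 and 12.64 after DMSO, 12.82 and 12.56 after rapamycin and 11.29 and 11.61 after the compound. It fell 2.41-fold after the compound (-1.27 ± 0.14, adjusted p = 0.000944), differed by -0.03 ± 0.14 after rapamycin, and was lower after the compound than after rapamycin (-1.24 ± 0.14, adjusted p = 0.00509). Between the treatments IDP2 was also lower after the compound (-0.88 ± 0.08), as was SOL4 (-0.59 ± 0.10, a call that ended without rapamycin replicate 2, adjusted p = 0.103).

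Of 20 other redox and detoxification enzymes, 8 rose and 6 fell after rapamycin, and 4 rose and 7 fell after the compound, or 70% and 55% called. The count lower was 3 after rapamycin without DMSO replicate 1, DMSO replicate 2 or rapamycin replicate 1, and 4 after the compound without DMSO replicate 1 or 2. After the compound, GTO3 and HSP31 were also called higher and GRE2 was no longer called lower without CID 3528206 replicate 1. Without CID 3528206 replicate 2, URE2, PST2 and HBN1 were also called lower. SRX1, sulfiredoxin, which repairs overoxidised peroxiredoxins, read 6.91 and 7.19 after DMSO, 8.53 and 8.84 after rapamycin and 8.28 and 8.60 after the compound. It rose 3.11-fold after rapamycin (1.64 ± 0.16, adjusted p = 0.000516) and 2.63-fold after the compound (1.39 ± 0.16, adjusted p = 0.00117). ECM4, an omega-class glutathione transferase, rose by 1.25 ± 0.07 and 0.81 ± 0.07. HSP31, a methylglyoxalase of the DJ-1 family, rose after rapamycin (1.21 ± 0.15) and differed by 0.42 ± 0.15 after the compound (adjusted p = 0.055). The flavodoxin-like gene YCP4 fell by 0.43 ± 0.08 and 1.19 ± 0.08, and ALO1, which makes the erythroascorbate of yeast, by 0.49 ± 0.13 and 0.85 ± 0.13. The rapamycin call for ALO1 ended without any 1 of the 4 arrays compared (adjusted p 0.0507 to 0.114). Directly between the treatments HSP31, YCP4 and PST2, another flavodoxin-like gene, were lower after the compound, by -0.78 ± 0.15, -0.75 ± 0.08 and -0.53 ± 0.09. Each of these 3 direct calls ended without rapamycin replicate 1 or 2, with adjusted p of up to 0.127, 0.0609 and 0.132, and those for HSP31 and PST2 also without DMSO replicate 1 or 2 (0.0519 and 0.0511).

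**Figure D4:**
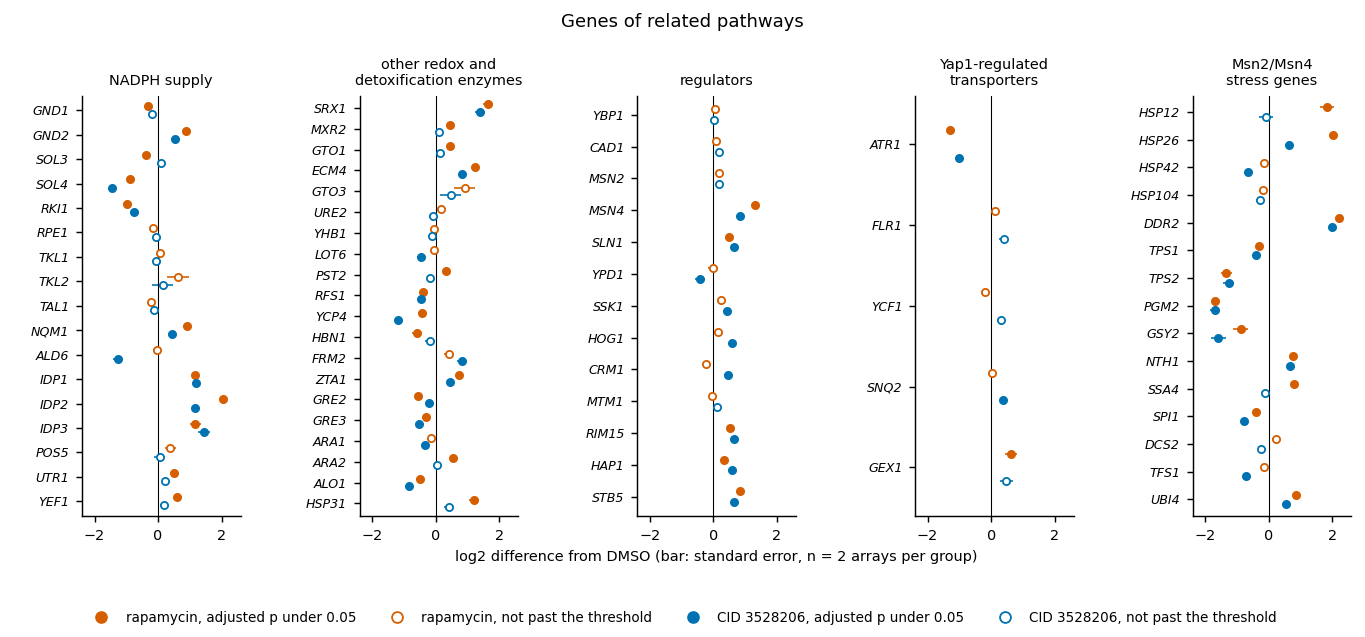
Log2 difference from DMSO (x axis, with standard error bars) for genes of 5 related lists (y axis), after rapamycin and after CID 3528206; filled points passed an adjusted p of 0.05. IDP2, SRX1 and DDR2 lie far to the right after both treatments, and ALD6 lies at 0 after rapamycin and at -1.27 after the compound.

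Of 13 genes for regulators of the oxidative stress response, 5 rose and 0 fell after rapamycin, or 38.5% called. After the compound 8 rose and 1 (YPD1) fell, or 69.2% called. With the 4 DMSO and rapamycin arrays fitted alone, 7 rose and 1 (CRM1) fell after rapamycin. The rapamycin call for HAP1 ended without any 1 of those 4 arrays, with differences of 0.27 to 0.41. The compound calls for SSK1 and CRM1 ended without DMSO replicate 1 or 2. Their differences were then 0.41 and 0.42 for SSK1 and 0.54 and 0.39 for CRM1. The YPD1 call was lost without any 1 array but CID 3528206 replicate 2 (adjusted p 0.0533 to 0.201). MSN4, the stress activator related to MSN2, rose by 1.30 ± 0.07 and 0.83 ± 0.07, whereas MSN2 differed by 0.18 ± 0.11 after each without passing. STB5, an activator of NADPH-producing genes, rose by 0.85 ± 0.07 and 0.65 ± 0.07, and the kinase gene RIM15 by 0.53 ± 0.08 and 0.66 ± 0.08. YBP1, whose product helps Hyr1 oxidise Yap1, did not pass (0.04 ± 0.09 and 0.02 ± 0.09). Compared directly, CRM1, the exporter that carries Yap1 out of the nucleus, and HOG1, the osmotic stress kinase, were higher after the compound than after rapamycin (0.69 ± 0.13 and 0.45 ± 0.07) and MSN4 was lower (-0.47 ± 0.07). These 3 calls ended without rapamycin replicate 1 or 2 (adjusted p of up to 0.131 for CRM1, 0.108 for HOG1 and 0.113 for MSN4).

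Among 5 measured Yap1-regulated transporter genes, 1 rose and 1 fell after each treatment, or 40% called. Of these, the multidrug pump gene ATR1 fell 2.43-fold after rapamycin (-1.28 ± 0.11, adjusted p = 0.000301) and 2.02-fold after the compound (-1.01 ± 0.11, adjusted p = 0.000939). GEX1, a glutathione exchanger measured by a probe set that may also read a second gene, rose after rapamycin (0.63 ± 0.19), a call that ended without either DMSO array, without rapamycin replicate 2 and after quantile normalization of the genes tested (adjusted p 0.153, 0.0795, 0.174 and 0.088). SNQ2, a drug pump gene, rose after the compound (0.38 ± 0.10), a call that ended without DMSO replicate 1 or 2 (0.0556 and 0.118). Without CID 3528206 replicate 1 the genes called higher after the compound were FLR1, SNQ2 and GEX1, and without replicate 2 they were FLR1, SNQ2 and YCF1. FLR1 and the vacuolar glutathione-conjugate pump gene YCF1 did not pass against DMSO, and YCF1 was higher after the compound than after rapamycin (0.48 ± 0.13, adjusted p = 0.0498), a call that ended without any 1 of the DMSO or rapamycin arrays (adjusted p 0.0926 to 0.235), after quantile normalization of the genes tested (0.0531) and with each array centred on its median (0.0505).

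CTT1 is also read here beside 15 other genes that Msn2 and Msn4 activate, of which 6 rose and 5 fell after rapamycin, and 4 rose and 7 fell after the compound, or 73.3% called after each. Without any 1 of the 4 DMSO and rapamycin arrays, 2 fell after rapamycin. DDR2, a small stress protein gene, rose from 11.12 and 10.87 after DMSO to 13.20 and 13.21 after rapamycin and 12.98 and 13.01 after the compound, while PGM2, phosphoglucomutase, fell 3.22-fold and 3.27-fold. GSY2, glycogen synthase, fell by 0.89 ± 0.24 and 1.60 ± 0.24, and its rapamycin call ended without any 1 of those 4 arrays (adjusted p 0.0666 to 0.0942). The small heat shock gene HSP26 rose by 2.02 ± 0.13 after rapamycin and 0.65 ± 0.13 after the compound, the second call ending without DMSO replicate 2 (adjusted p = 0.0508). HSP12 and the Hsp70 gene SSA4 rose after rapamycin (1.82 ± 0.22 and 0.79 ± 0.07) and did not pass after the compound (-0.09 ± 0.22 and -0.13 ± 0.07). Directly compared, HSP12, HSP26 and SSA4 were lower after the compound, by -1.91 ± 0.22, -1.37 ± 0.13 and -0.92 ± 0.07, as CTT1 was, and the direct call for HSP12 ended without rapamycin replicate 2 (adjusted p = 0.0517).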

How the data were processed

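RNA of 6 samples was labelled with biotin from 100 ng of total RNA and read on Affymetrix 3' expression arrays, per the labels' protocols. The deposited values are log2 values per probe set that the authors made with RMA, per the submitters' processing notes, whose version no source used here gives. RMA quantile-normalizes arrays, so a shift shared by most genes would not show. Of 10928 probe sets, 5498 named 1 S. cerevisiae gene, with symbols brought up to date through the R64 annotation (12 changed), and gave 5449 genes; for 47 genes with several probe sets the one with the highest mean was used. The fit was limma 3.58.1 in R 4.3.3 (lmFit, eBayes) across the 6 arrays, estimating the 3 group means and leaving 3 residual degrees of freedom, two-sided, with Benjamini-Hochberg adjustment over 5449 genes. It was also run on simulated data with the same spread in all 3 groups and few changed genes, unlike these data. Members called with a log2 difference of at least 0.58 are given on every array, and of each related list up to 3 called genes per comparison are named. The other genes were named only to account for a count or a role. The members and lists were chosen with earlier results of these data known. Alternatives, 18 in all, had been listed with the design and changed 1 choice each, except that the trend and the robust fitting of the variance prior were changed together. The number of arrays limits the precision. No promoter or protein sequences were used here.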

Additional observations from a re-analysis of the deposited data

How the results depend on the processing

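For called members, 794 of 905 differences under the alternatives kept their direction and their side of the threshold, 111 kept only the direction, and 0 changed sign. That share is no measure of stability, because some alternatives could hardly change a member. Averaging probe sets, keeping probe sets of 1 gene and keeping genes above background left the log2 values of every member as they were. Leaving out either array of the group outside a comparison repeats the fit of its 4 arrays alone. The cause of the changes below was not tested. For rapamycin against DMSO, leaving out 1 array gave 5 to 14 members higher and 7 to 17 lower. The count higher was 14 with the 4 arrays alone, with array weights per group and with the 3' minus 5' difference as a covariate, and at an adjusted p under 0.01 the count lower was 7. The median member difference was 0.0025 after quantile normalization, -0.0600 with genes of low mean removed and -0.0069 with the covariate. For the compound against DMSO, leaving out 1 array gave 4 to 9 higher, 11 to 19 lower and a median of -0.2057 to -0.0081, the covariate gave 9 higher and an adjusted p under 0.01 gave 3 higher. Between the treatments, leaving out 1 array gave 0 to 8 higher and 0 to 14 lower. The counts higher and lower were 1 and 3 with the 4 arrays alone, 7 and 13 with trend and robust fitting changed together, 10 and 12 with the covariate, and 1 and 1 at an adjusted p under 0.01. Array weights gave 3 lower. Removing genes of low mean, which left 31 members and 3632 genes, gave a median of -0.0552.

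With the replicate number as a block, 9 members were higher and 16 lower after rapamycin, 6 and 13 after the compound, and 5 and 11 between the treatments. Arrays share only a number: replicate differences correlated between groups by 0.248 to 0.431 over genes, and replicate 1 had the higher 3' minus 5' value in every group, but 2 numbers are too few to show a pairing. Over all genes the block called 748 higher and 762 lower between the treatments, against 508 and 514 without it. At an adjusted p under 0.01 the all-gene counts were 1000 and 872 after rapamycin, 929 and 777 after the compound and 92 and 122 between the treatments, where the 4 arrays alone gave 183 and 214.

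Signs changed for some differences that had not passed. Leaving out 1 array moved TSA1 after rapamycin between -0.0104 and 0.0107, and centring gave -0.0125. After the compound the ranges were -0.2395 to 0.0108 for SOD2, -0.3033 to 0.0756 for PRX1, -0.2740 to 0.0512 for DOT5, -0.0373 to 0.0168 for TRX2, -0.0690 to 0.0460 for OYE2 and -0.2078 to 0.4611 for SKN7. The covariate gave 0.0058 for SOD2, 0.0120 for CCS1, 0.0882 for PRX1, 0.0627 for DOT5 and 0.0614 for OYE2, and quantile normalization 0.0179 for TRX2 and -0.0549 for OYE3. Between the treatments the ranges were -0.0412 to 0.0325 for AHP1, -0.1378 to 0.1459 for GRX5, -0.1199 to 0.3169 for GRX6, -0.0648 to 0.2071 for GRX7 and -0.1209 to 0.5481 for SKN7, with 0.0232 for AHP1 under the covariate and -0.0095 for GRX5 after quantile normalization.

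With 2 arrays a group, no outlier test was made. Each member had a mean above the S. pombe background, and whether low signal limited single members was not tested. The planned description of promoter motifs was not run, because no promoter sequence was used here.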
